A study of Mus musculus with 2 samples.

Results

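The genes described here encode the interleukin-2 (IL-2) receptor, the JAK kinases bound to it, the STAT5 transcription factors those kinases activate, and the inhibitors that STAT5 induces to switch the pathway off again. They were chosen by annotated gene symbol from a list of 10 (Il2ra, Il2rb, Il2rg, Jak1, Jak3, Stat5a, Stat5b, Socs1, Socs3 and Cish). An annotated probe was found for 9 of the 10, with 1 probe for each, among 23473 probes in all. Il2rg, the common gamma chain, had no annotated probe and was not analysed here. Stat5a had a value on a single array, so a difference could be computed for 8 genes, among 13735 genes with a value on both arrays.

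IL-2 is the growth factor on which activated cytotoxic T lymphocytes (CTL) depend. It binds a receptor whose beta and gamma chains hold JAK1 and JAK3, and these kinases phosphorylate STAT5A and STAT5B, which enter the nucleus and induce genes of growth, survival and killing. Among the induced genes are Cish and the suppressors of cytokine signalling, whose proteins bind the receptor or the kinases and limit the signal. The alpha chain, Il2ra, also called CD25, raises the receptor's affinity and is made in quantity after activation and in regulatory T cells.

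The RNA came not from cells but from extracellular vesicles that mouse CTL had released into their medium. The 0.5 M NaCl fraction and the 0.3 M NaCl fraction were the vesicles that left a DEAE column, a positively charged resin, at those salt concentrations. Both came from the medium of CTL cultured for 7 days, cleared of protein and concentrated on a 750 kDa filter. Each fraction was measured on 1 single-colour array of Cy5-labelled amplified RNA, so no replicate check, test or SD between preparations exists. Not given in the sources used here are the mouse strain, the stimulus, any IL-2 added to the culture and how many cultures were pooled. A difference between fractions cannot tell fewer vesicles with a transcript apart from less of it per vesicle.

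Values are deposited probe intensities in linear units, and differences are log2 intensity at 0.5 M minus 0.3 M after each array was centred on its median over shared probes. Fold changes set a probe against itself on the other array, and a percentile says only how bright a probe was on its array, not how abundant its transcript was. Values were present for 71.3% of probes at 0.5 M and 80.8% at 0.3 M, and the median over probes with a value was 25 on each. The comparison kept 7446 genes, those that reached the gene median of either array or exceeded it. All 8 listed CTL markers had values on both arrays and 7 were kept, with a summed intensity of 7227 at 0.5 M and 7970 at 0.3 M. Gzmb (2838 at 0.5 M, 2493 at 0.3 M) and Cd8a (2463 and 3677) made up most of the sum, while Cd3e (14 and 12) and Prf1 (26 and 33) were dim. Another Cd8a probe was empty on both arrays. Marker sums here are of deposited values, before centring. After centring the 7 kept CTL markers had a median difference of 0.49. Of these, 4 lay above 0 and 3 below, against 55.9% of all kept genes above 0. With a loess trend removed that median was -0.03. The 4 regulatory T cell markers summed to 202 at 0.5 M and 214 at 0.3 M. That sum includes the member Il2ra itself, with 82 at 0.5 M and 104 at 0.3 M. Foxp3, the defining marker of the 4, had 16 and 8 on its 2 probes at 0.5 M and 13 and 12 at 0.3 M. Ctla4, which activated T cells also make, had 82 at 0.5 M and 64 at 0.3 M. The helper T cell marker Cd4 had 25 at 0.5 M and 40 at 0.3 M. Macrophage and dendritic cell markers summed to 132 at 0.5 M and 127 at 0.3 M, mostly Csf1r (50 and 49) and Cd68 (53 and 50), with Adgre1 empty on both. The 3 NK cell markers summed to 25 at 0.5 M and 26 at 0.3 M. B cell markers summed to 486 at 0.5 M and 355 at 0.3 M over the 4 of 6 measured on both arrays, with Cd79b at 328 and 94 and Cd22 at 126 and 225 in that order, while Pax5 was empty on both. The part of other cells' RNA in the members' values was not tested.

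Probes for the alpha and beta chains of the IL-2 receptor, both kinases, Stat5b and the 3 feedback inhibitors gave values in both fractions, and after centring none of these 8 differed by 2-fold between them. With a loess trend removed Socs3 passed that size (-1.15), and 293 of 7448 kept genes were at least 2-fold lower. The feedback inhibitor Socs3 had the largest difference, -0.64, and the transcription factor Stat5b the largest positive one, 0.63. At least 2-fold higher at 0.5 M were 0 of the 8 members, against 5.24% of all kept genes, and at least 2-fold lower were 0, against 2.35% (7.59% in either direction). At least 1.5-fold different were 2 of the 8, Stat5b (higher) and Socs3 (lower), against 29.9% of kept genes in either direction, 18.9% higher and 11% lower. After centring 4 of the 8 lay above 0, against 55.9% of kept genes. The median difference of the 8 was 0.17 and that of all kept genes 0.08. Stat5b was kept through its 0.5 M value alone, and without it the median of the other 7 was -0.01. The background shares rest on the scaling, since 69.0% of the 2-fold calls were higher at 0.5 M with centring, against 17.3% as deposited, 46.5% with quantile normalization and 44.5% with loess.

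**Figure D1:**
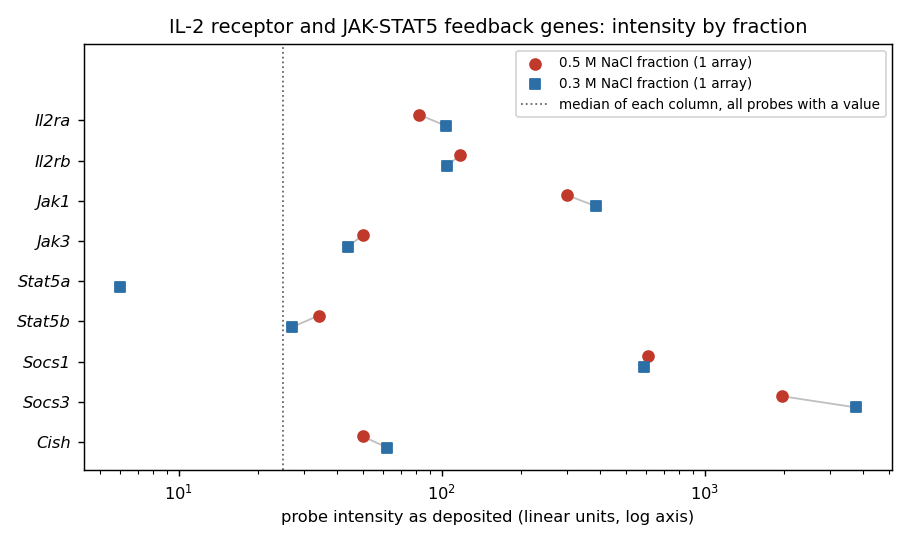
Deposited intensity of each member's probe (log axis) in the 0.5 M fraction (red circles) and the 0.3 M fraction (blue squares), with 1 array each and no error bars. Socs3 is the gene whose points lie farthest apart (1958 and 3745), and Stat5a has a point at 0.3 M alone.

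The receptor chains were measured well above the median of their arrays. Il2ra had an intensity of 82 at 0.5 M and 104 at 0.3 M, at percentiles 78.0 and 81.6 of the probes with a value on each array. Its centred difference was -0.04, or 0.97-fold. Il2rb, the beta chain that IL-2 shares with IL-15 and that carries much of the signalling tail, had 117 at 0.5 M and 105 at 0.3 M. Its centred difference was 0.46, or 1.37-fold, and 74.3% of kept genes had a smaller value. The alpha chain's difference was thus lower than the beta chain's by 0.50, a contrast within each array that no constant rescaling can alter. Neither chain was past 2-fold. For kept genes with several probes, the differences of probes to the same gene varied with a pooled SD of 0.55 over 358 genes, which is more than the gap between these chains. That SD covers probe disagreement and not the variation between vesicle preparations.

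The kinases differed from each other by about as much. Jak1, which associates with Il2rb and with many other cytokine receptors, had 299 at 0.5 M and 387 at 0.3 M, a centred difference of -0.07. Jak3, which pairs with the common gamma chain and is largely confined to blood cells, had 50 at 0.5 M and 44 at 0.3 M, a centred difference of 0.48. Jak1 was lower than Jak3 by 0.56 in this measure, close to the SD of 0.55 for a single probe. A gap between the probes of different genes varies more than that. On the 0.5 M and 0.3 M arrays the Jak1 probe lay at percentiles 91.7 and 93.6, and the Jak3 probe at 68.4 and 65.3.

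The STAT5 probes gave little signal. Stat5b had an intensity of 34 at 0.5 M and 27 at 0.3 M, near the middle of both columns (percentiles 58.9 and 52.4). Its centred difference of 0.63, or 1.55-fold, was the highest among the members, but the filter bears on it. Stat5b reached the gene median at 0.5 M and not at 0.3 M, and all 578 genes kept in that way had a difference above 0, with a median of 0.56. Before centring the ratio was 1.26. Stat5a had no value at 0.5 M and an intensity of 6 at 0.3 M, where the lowest value of the whole column was 4. Among probes with a 0.3 M intensity below 10, 56.9% had no 0.5 M value, so an empty cell at that brightness was the commoner outcome and no fold is given. Stat5a and Stat5b are neighbouring genes with closely related proteins, and whether either probe binds the other's transcript was not checked.

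The feedback inhibitors differed among themselves. Socs3, which blocks JAK kinases at receptors such as gp130, had 1958 at 0.5 M and 3745 at 0.3 M. Its centred difference was -0.64, which is 1.55-fold lower at 0.5 M, and 695 of the 7446 kept genes had a lower value. Socs1, which inhibits JAK kinases directly and restrains interferon-gamma and IL-2 signals, had 608 at 0.5 M and 586 at 0.3 M, a centred difference of 0.35. Cish, the STAT5-induced inhibitor that gave the family its first member, had 50 at 0.5 M and 62 at 0.3 M, a centred difference of -0.01. Socs3 was lower than Socs1 by 0.99 within the same pair of arrays. This gap was larger with quantile normalization (-1.09) and with removal of a loess trend (-1.20), and slightly smaller with a pseudocount of 16 (-0.98). A constant offset between arrays cancels in it by construction. The gap rests on 1 probe for each gene. Differences of probes to the same gene varied with a pooled SD of 0.55, and a gap between 2 probes varies more than 1 probe does.

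Because these inhibitors are induced by STAT factors, their promoters are shown where they hold the palindromic STAT motif TTCNNNGAA, which reads the same on both strands. RefSeq promoter windows (GRCm38.p6, 250 bases before to 50 after an annotated start) were held for 9 of the 10 members, in 11 windows, and not for Il2rb. The motif lay in the windows of Cish and Socs3 and in no window of the other 7 genes, Socs1 included. Over all 32851 windows of this length, 8.30% held it, and 0.457% held it 2 or more times, as Cish did. The stretches below are 130 bases each, 5′ to 3′ on the gene's strand, with the motif in capitals. For Cish (plus strand, chr9:107296559-107296688) the stretch runs from 100 bases before the start to 30 after it, and the matches begin at bases 1 and 12 after the start. For Socs3 (minus strand, chr11:117969437-117969566) it runs from 200 to 71 bases before the start, and the match begins 154 bases before it.
Cish: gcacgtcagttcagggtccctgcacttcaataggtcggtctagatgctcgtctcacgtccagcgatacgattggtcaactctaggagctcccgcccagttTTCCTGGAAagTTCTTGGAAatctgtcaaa
Socs3: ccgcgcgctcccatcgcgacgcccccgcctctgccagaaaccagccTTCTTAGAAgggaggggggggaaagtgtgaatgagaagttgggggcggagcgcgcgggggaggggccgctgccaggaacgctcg

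Both genes hold such letters, and their differences were -0.01 for Cish and -0.64 for Socs3. Across the table, the 492 kept genes with the motif in a window had a median difference of 0.02, and 6.30% of them were past 2-fold. The 5854 kept genes with any window had a median of 0.07, with 7.12% past 2-fold. The 30 kept genes with the motif at least 2 times in a window had a median of 0.15. Of these, 2 were at least 2-fold higher and 0 lower, or 6.67% past 2-fold. Among the 5854 genes with any window, 284 were higher and 133 lower by that rule. A match describes sequence rather than a site in use, and a link between the motif and these differences was not tested.

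**Figure D2:**
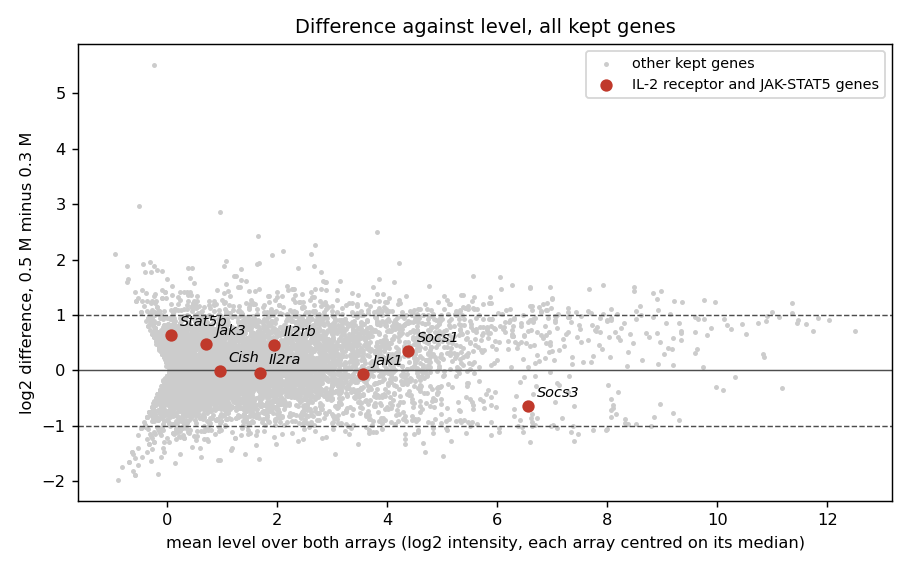
Log2 difference (0.5 M minus 0.3 M, centred) against mean level for 7446 kept genes in grey and the 8 members in red, with dashed lines at 2-fold. All 8 members lie between the dashed lines, and Socs3, farthest to the right of them, lies below most genes of its level.

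Differences across the table depended on brightness, which touches Socs3 most. In the top 10% of kept genes by level the median difference was 0.46, and in the bottom 10% it was -0.04. The 500 kept genes nearest to Socs3 in level had a median of 0.49, and the middle 95% of them ran from -1.10 to 1.36. Socs3 at -0.64 lay inside that span, at percentile 14.2, and 20.4% of those neighbours were past 2-fold. Socs1, at 0.35, was close to its own neighbours' median of 0.29. Jak1 lay under its neighbours' median of 0.25, at percentile 32.6. Jak3 lay at percentile 86.3 of its neighbours. All 8 members lay within the middle 95% of their 500 neighbours.

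**Figure D3:**
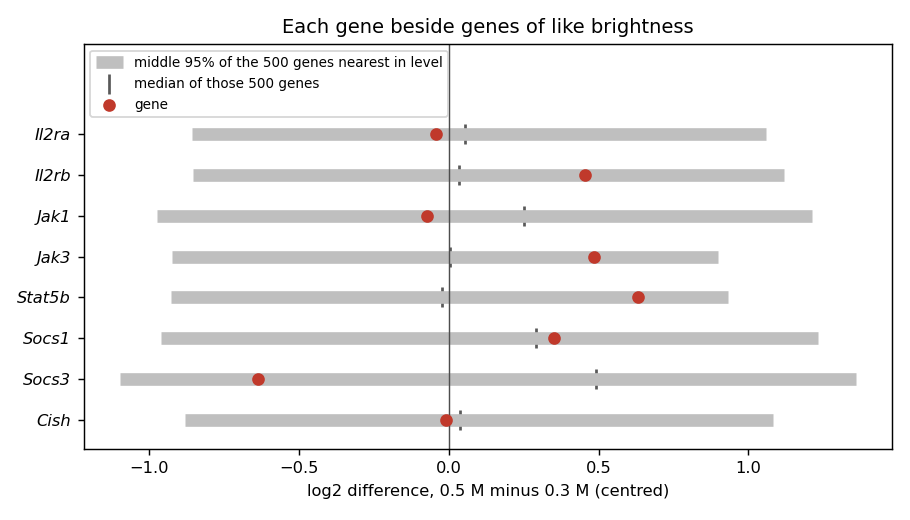
Centred log2 difference of each member (red) beside the middle 95% (grey bar) and the median (tick) of the 500 kept genes nearest to it in mean level. Each red point lies inside its bar, with Socs3 left of its tick and Stat5b, Jak3 and Il2rb right of theirs.

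Under the other scalings the order of the members did not change. For the values as deposited this was fixed in advance, since those differences depart from the centred ones by a constant. Socs3 stood lowest and Stat5b highest with the values as deposited (-0.94 and 0.33), with quantile normalization (-0.97 and 0.62), with the loess trend removed (-1.15 and 0.63) and with a pseudocount of 16 (-0.74 and 0.41). With loess, Socs3 was thus the single member past 2-fold, although it still lay inside the middle 95% of its neighbours, from -1.62 to 0.90. Il2rb, Jak3, Stat5b and Socs1 were above 0, and Il2ra, Jak1, Socs3 and Cish below 0, with centring and in these 4 alternatives. The filters and the choice of probe cannot move a difference that rests on 1 probe, and the stricter filter removed Stat5b. For Il2ra, Cish and Jak1 the centred values of -0.04, -0.01 and -0.07 are too near 0 for their sign to carry information. Socs1 also came near 0, at 0.05 both as deposited and with loess. The centred differences of Il2rb (0.46), Jak3 (0.48) and Socs1 (0.35) were smaller than the SD of 0.55 between probes. With 1 array for each fraction the sign of no member was tested.

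**Figure D4:**
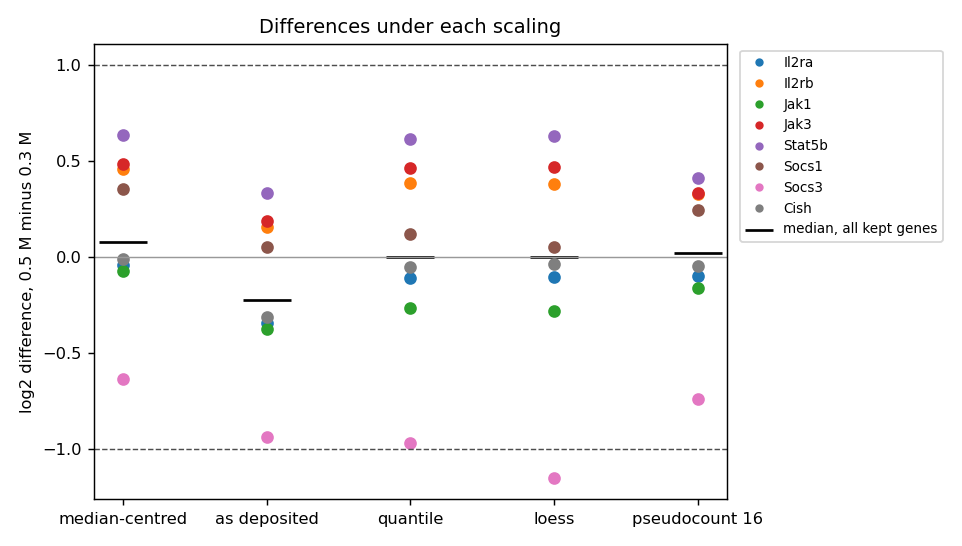
Log2 difference (0.5 M minus 0.3 M) of the 8 members under 5 scalings, with black bars for the median of all kept genes and dashed lines at 2-fold. Socs3 is lowest and Stat5b highest in each column, and Socs3 passes the dashed line with loess alone (-1.15).

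The rest of the pathway was followed through 7 lists with 71 genes, of which 64 had an annotated probe and 31 were kept. Their median difference was 0.15, against 0.08 over all kept genes, and 19 of the 31 lay above 0, against 55.9%. At least 2-fold higher was 1 and at least 2-fold lower was 1 (6.45% together, against 7.59% of all kept genes). Tnfrsf18 was the higher and Socs4 the lower gene.

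The ligands of the gamma chain family were mostly dim. Il2 itself had an intensity of 6 at 0.5 M and 4 at 0.3 M, which is the lowest value of the 0.3 M column. Il4 had 12 and 13 and Il21 had 13 and 17 at 0.5 M and 0.3 M. Il7, which is made by stromal cells and sustains resting T cells, was the single ligand kept, with 75 at 0.5 M and 137 at 0.3 M, a difference of -0.57. Among the other receptor chains listed with this family, 2 of 6 were kept. Both lay below 0 after centring, against 44.1% of all kept genes. Il4ra, the IL-4 receptor chain, had 89 at 0.5 M and 133 at 0.3 M (-0.28). Crlf2, the receptor chain for TSLP, was at -0.27 as the mean of 2 probes. The dimmer probe (14 at 0.5 M and 24 at 0.3 M) was at -0.48 and the brighter (109 and 141) at -0.07. Il7r, which falls on T cell activation in textbook accounts, had 5 at 0.5 M and 8 at 0.3 M, and Il9r had 10 at 0.5 M and 15 at 0.3 M.

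Of 7 other JAK and STAT genes, 3 were kept, at 0.24 to 0.33. Tyk2, the kinase of the interferon and IL-12 receptors, had 89 at 0.5 M and 87 at 0.3 M (0.33). Stat3, activated by IL-6 and IL-21, was at 0.31 as the mean of 2 probes, and Stat4, activated by IL-12, was at 0.24 with 48 at 0.5 M and 50 at 0.3 M. Below the filter, Jak2 had 5 at 0.5 M and 11 at 0.3 M (-0.84), Stat6 had 9 and 13 (-0.23) and Stat2 had 13 and 15 (0.09).

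Of the 9 other SOCS and PIAS inhibitors, 5 were kept, and 4 of the 5 lay below 0, against 44.1% of all kept genes, with a median of -0.36. Socs4 had 127 at 0.5 M and 359 at 0.3 M, a difference of -1.20, or 2.30-fold lower at 0.5 M, and stayed past 2-fold with the values as deposited, with quantile normalization (-1.35) and with loess (-1.34). Pias2, a SUMO ligase that acts on STAT proteins, had 47 at 0.5 M and 104 at 0.3 M (-0.85). Socs2, itself a STAT5 target that limits growth hormone signals, had 53 at 0.5 M and 84 at 0.3 M (-0.36), and Socs6 had 146 at 0.5 M and 196 at 0.3 M (-0.13). The gene of this list above 0 was Socs5 (0.11). Of 9 phosphatases and adaptors, 3 were kept, with 1 above and 2 below 0. The phosphatase Ptpn2, which dephosphorylates JAK1, JAK3 and STAT5, had 58 at 0.5 M and 123 at 0.3 M (-0.78). Ptpn1 had 701 at 0.5 M and 882 at 0.3 M (-0.03), Ptpn6 was dim at 25 and 27 in the same order, and the adaptor Sh2b1 was at 0.02.

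In the RAS and PI3K arm downstream of the receptor, 5 of 18 genes were kept and 4 of the 5 lay above 0, against 55.9% of all kept genes. With the values as deposited 2 of the 5 lay above 0 and their median was 0, against 34.4% of kept genes. Akt1, the kinase that relays PI3K signals, had 376 at 0.5 M and 291 at 0.3 M (0.67), Akt2 was at 0.33, Pik3cd at 0.30 and Map2k1 at 0.24. Of 16 known STAT5 or IL-2 targets, 12 were kept, 10 lay above 0, against 55.9% of all kept genes, and the median was 0.24. As deposited 5 of the 12 lay above 0, against 34.4% of all kept genes. With quantile normalization 8 did, against 49.99%, and with loess 8 did, against 49.89%. With a pseudocount of 16, 10 did, against 51.56%. Tnfrsf18, the costimulatory receptor GITR, had 1630 at 0.5 M and 923 at 0.3 M (1.12, or 2.17-fold). It was under 2-fold with the values as deposited (0.82), quantile normalization (0.77) and loess (0.71). Pim2, a survival kinase, had 578 at 0.5 M and 409 at 0.3 M (0.80). Id2, a transcriptional regulator of effector T cells, was at 0.21, whereas Mcl1, an anti-apoptotic protein, had 622 at 0.5 M and 1079 at 0.3 M (-0.50). The median of the target list was -0.06 with the values as deposited, 0.16 with quantile normalization and 0.17 with loess. The median of the SOCS and PIAS list was below 0 in each of these, at -0.66, -0.42 and -0.40. In the same order, the medians of all kept genes were -0.22, 0 and -0.001. Whether these lists differ from other genes was not tested.

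**Figure D5:**
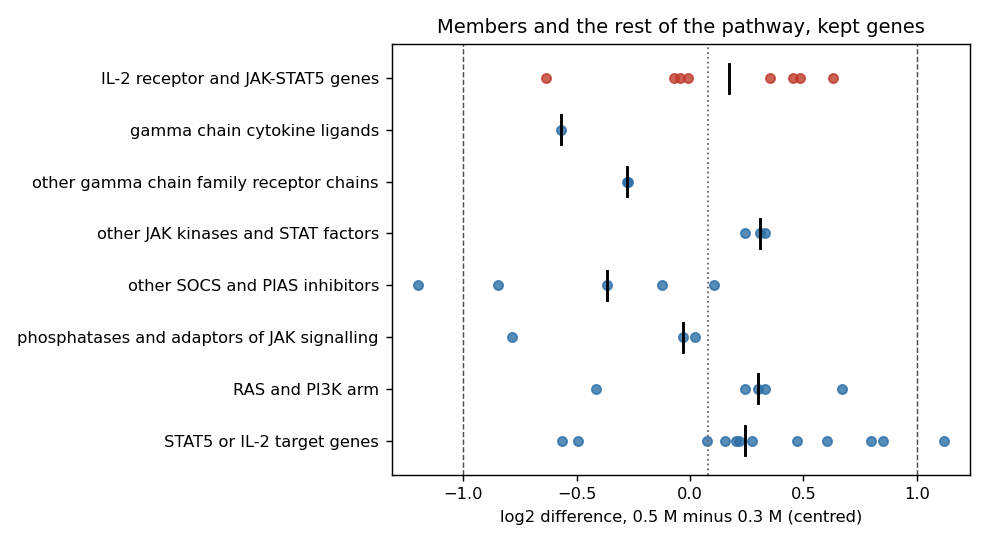
Centred log2 difference (0.5 M minus 0.3 M) of each kept gene, by list, with the members in red, a black bar at each list's median, a dotted line at the median of all kept genes and dashed lines at 2-fold. Socs4 at -1.20 and Tnfrsf18 at 1.12 are the points outside the dashed lines.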

How the data were processed

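Intensity values per probe were deposited by the authors on a linear scale as whole numbers, with some cells empty. Cy5 was coupled to amino allyl aRNA, per the labels' protocols. Not given in the sources used here are the scanner, the background correction, the normalization and why cells are empty. Each fraction had 1 array.

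Of 23473 probes, 20690 had 1 gene symbol, 0 several and 2783 none. Symbols were updated through a RefSeq table by Entrez identifier (20556) or accession (9), and 125 kept the array's. Intensities were log2-transformed. The medians over 16154 shared probes were 26 at 0.5 M and 32 at 0.3 M, and centring removed a shift of -0.30. Probes of the same gene with values on both arrays were averaged. Empty cells got no substitute value. Calls used a size rule of 2-fold, since 1 array a group permits no test. The steps were tested on simulated data. Members and lists were chosen with earlier results of these data known. Genes were named by rule, namely all members, up to 4 of the brightest of each list, and kept genes past 2-fold. Socs5, Jak2, Stat6 and the cell markers were named outside it, after their values were seen. With 2 arrays no gene was named for likeness of pattern. Alternatives were the deposited scaling, quantile normalization, loess (span 0.3), a pseudocount of 16, other filters, the brightest probe and a 1.5-fold rule. Python 3.11.15, pandas 2.3.3, numpy 2.4.6 and statsmodels 0.14.6 were used.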

Additional observations from a re-analysis of the deposited data

How the results depend on the processing

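Of the 8 members, 0 were at least 2-fold higher and 0 at least 2-fold lower, in each scaling and filter tried except loess, where 1 was lower (Socs3, -1.15). With loess, 293 of 7448 kept genes were at least 2-fold lower. A 1.5-fold rule gave 1 member higher (Stat5b) and 1 lower (Socs3), against 18.9% and 11% of kept genes (1409 higher and 818 lower). The count of all kept genes past 2-fold, 390 higher and 175 lower (69.0% higher), rested on the scaling and is background here. It was 121 and 579 as deposited (17.3% higher), 250 and 288 with quantile normalization (46.5%), 235 and 293 with loess (44.5%), 157 and 98 with a pseudocount of 16 (61.6%) and 701 and 380 with no filter on dim genes (64.8%). The stricter filter left 293 higher and 92 lower (76.1%). No paired analysis was possible because each fraction had 1 array and the result comes from no test. The number of arrays limits every value, and how far dim probes lay above background is unknown.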
